A study of Mus musculus with 4 samples.

Results

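A set of 10 gene symbols of the glycolytic pathway were followed in ribosome footprints of mouse primary myoblasts: Gpi1, Aldoa, Tpi1, Gapdh, Pgk1, Pgam1, Eno1, Eno3, Pkm and Ldha. They were taken by gene symbol alone, which gave 11 of the 55573 genes in the table, because 2 genes carry the symbol Aldoa. The second of these held 1 read in each library and is set apart below. No enzyme passed the test for a difference between the libraries labelled KO and the wild-type libraries, and the WT libraries differed from each other for most of them. The muscle enolase Eno3 made up a smaller share of the enolases in both libraries labelled KO.

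The cells, primary myoblasts grown from muscle stem cells, came from hind-limb muscles of 3-week-old mice in the C57BL/6j background, after tamoxifen. There were 2 libraries from wild-type (WT) littermates and 2 labelled KO. The KO genotype was Pax7CreERT2/+;eIF5A f/f, in which Cre is driven by Pax7, so that cells not expressing it keep the gene. The study's text gives the WT controls as Pax7CreERT2/+ mice and in another place as mice without the Cre allele, so whether the controls carried Cre is not settled. All cells were grown in serum medium with FGF and collected on day 2 of proliferation after cycloheximide, which arrests elongating ribosomes (10 min in the labels, 1 min in the design text). Whether a library is 1 mouse or a pool is not given in the sources used here, so the spread between replicates may be technical.

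Glycolysis splits glucose into pyruvate in the cytosol, and lactate dehydrogenase turns pyruvate into lactate. Proliferating muscle precursors rely on it heavily, and differentiated fibres exchange some of the ubiquitous enzymes for muscle forms, of which beta-enolase, the product of Eno3, is a classic marker. eIF5A is a translation factor, modified with hypusine, that helps ribosomes through difficult stretches such as runs of proline and also acts in termination.

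The muscle and ubiquitous enolases are separate genes with similar coding sequences, so the stretch in which they are most alike shows what a footprint has to tell apart. It is the same coding segment of both genes (GRCm38, plus strand, coding exon 9, coding bases 1078 to 1167), at chr4:150247841-150247930 in Eno1 and chr11:70661972-70662061 in Eno3. Capitals mark the 13 bases of 90 that differ.
Eno1: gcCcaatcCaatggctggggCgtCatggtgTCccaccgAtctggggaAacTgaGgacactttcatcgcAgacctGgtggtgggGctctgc
Eno3: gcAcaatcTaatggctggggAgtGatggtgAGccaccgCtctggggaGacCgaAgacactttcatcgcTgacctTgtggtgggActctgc

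Over the 1302 coding bases of each, Eno1 and Eno3 differed at 303 positions and were 76.7% identical. None of the 1273 windows of 30 bases, close to the length of a footprint, was identical between them, although the closest window differed at 1 base.

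Many glycolytic genes have processed pseudogenes, and the following 30-base windows are those found in the most other genes. They show where counts of these enzymes can depend on how repeated reads were treated, which the sources used here do not state. All are written 5′ to 3′ on the gene's strand in GRCm38, with no capitals because nothing within them is singled out. The Gapdh window (minus strand, chr6:125162917-125162946) occurs in transcripts of 134 other genes, the Eno1 window (plus, chr4:150245137-150245166) in 8, the Pgk1 window (plus, chrX:106202550-106202579) in 5 and the Pgam1 window (plus, chr19:41916708-41916737) in 4.
Gapdh: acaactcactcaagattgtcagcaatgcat
Eno1: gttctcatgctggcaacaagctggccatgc
Pgk1: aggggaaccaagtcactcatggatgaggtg
Pgam1: tgccagagcactgcccttctggaatgaaga

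Pgam1 was also the single member with a proline run. Its 4 proline codons, at codons 122 to 125 of 254, lie in coding exon 2 on the plus strand at chr19:41915820-41915849 (GRCm38) and are in capitals.
Pgam1 proline run: tatgatgtcCCACCGCCTCCCatggagcct

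A run of at least 3 prolines was thus present in 1 of 10 members (10.0%), against 2531 of 9869 protein-coding genes tested (25.6%). The GC content of the members' coding sequences lay between 49.7% and 57.3% with a median of 55.3%, against a median of 53.2% over those genes.

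The libraries held 642429 to 704006 reads assigned to genes, and protein-coding genes took 33.9% to 41.5% of them in WT and 59.2% to 65.4% in the libraries labelled KO. Eif5a itself was not lower under the KO label: its RPKM was 34.9 and 65.2 for the WT pair, against 60.3 and 59.4 for the pair labelled KO. The paper checked the knockout by RT-qPCR and immunostaining in satellite cells of older mice and reports it as successful. Which part of the gene was removed is not given in the sources used here, and gene totals cannot show it, so the libraries are named by their labels throughout. Summed RPKM of 8 myoblast markers was 194 to 242 in WT and 118 to 130 in KO, of which Myod1, the most abundant, made up 140, 117, 48.6 and 79.8 in the order WT 1, WT 2, KO 1, KO 2. Of the 8 markers, 5 lay lower in both KO libraries than in both WT libraries (20.3% of all genes tested), Pax7 (8.49, 3.62, 0.94 and 1.48) and Myod1 among them, 1 lay higher (20.1% of all genes; Vcam1, at 5.42, 11.7, 20.0 and 13.0) and 2 overlapped, and none passed the adjusted threshold in limma (3 had an unadjusted p under 0.05, against 7.32% of all genes). Summed RPKM of 26 muscle differentiation markers was 307, 90.9, 56.7 and 52.4 in that order, with Tnnc2 at 0 in every library and Acta1 (129) and Myog (91.0) making up most of the sum in WT replicate 1. Of the 14 tested, 9 lay lower in both KO libraries (20.3% of all genes) and 1 higher (20.1%), with a median difference of -1.34. In limma 5 had an unadjusted p under 0.05 (7.32% of all genes) but none an adjusted one. Fibroblast (8 genes, 270 to 775) and endothelial markers (5 genes, 101 to 138) were present in every library, with the fibroblast sum highest in KO replicate 1, where Dcn was 460 of 775. The 8 fibroblast markers were not uniform: 3 lay higher in both KO libraries, 1 lower and 4 overlapped, so that 4 of 8 were apart against 40.4% of all genes. Of the 5 endothelial markers 4 lay higher in both KO libraries (20.1% of all genes), Pecam1 among them with a difference of only 0.05. Immune (5 genes; 28.4 and 38.5 in WT, 25.0 and 25.9 in KO) and mural markers (5 genes; 156 and 122 in WT, 99.3 and 108 in KO) were also present. Of 3 immune markers tested, 2 lay lower in both KO libraries (20.3% of all genes) and 1 higher (20.1%). Lyz2 (-1.16) and Adgre1 (1.33) had an unadjusted p under 0.05 in limma (7.32% of all genes). Of 4 mural markers tested, 2 lay lower in both KO libraries and none higher. The part of this cell make-up in the values below was not tested. Footprint levels hold both the amount of an RNA and its translation. In these bulk samples fewer cells of a type, less RNA per cell and less translation per RNA cannot be told apart.

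Levels are given as RPKM, that is reads divided by gene length in kilobases and by a library factor that makes the typical gene equal between libraries. A change shared by most genes therefore cannot be seen in them. Differences are KO minus WT on log2(RPKM + 1), with their standard error (SE), from limma across 11363 genes, and adjusted p-values are Benjamini-Hochberg over all of these genes. With 2 libraries against 2, an exact permutation test of a single value cannot go below 0.333.

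Summed over the enzymes, WT replicate 1 stood apart among protein-coding reads, but not among all reads. The 11 genes took 0.385% of protein-coding reads in WT replicate 1 (95% Wilson interval 0.362% to 0.409%) and 0.563% in WT replicate 2 (0.532% to 0.595%). They took 0.557% in KO replicate 1 (0.536% to 0.579%) and 0.588% in KO replicate 2 (0.565% to 0.613%). On this scale WT replicate 2 lay within the range of the libraries labelled KO, and WT replicate 1 lay below all the others. As a share of all gene-assigned reads the order was different, because protein-coding genes took less of the WT reads. The enzymes then made up 0.160% and 0.191% in WT and 0.364% and 0.349% in KO, so that both WT libraries lay below both KO libraries. The summed RPKM showed the same order of WT replicate 1 against the rest, at 468 against 725, 775 and 761. Reads carry no molecular identifiers, so the intervals cover counting error only.

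**Figure D1:**
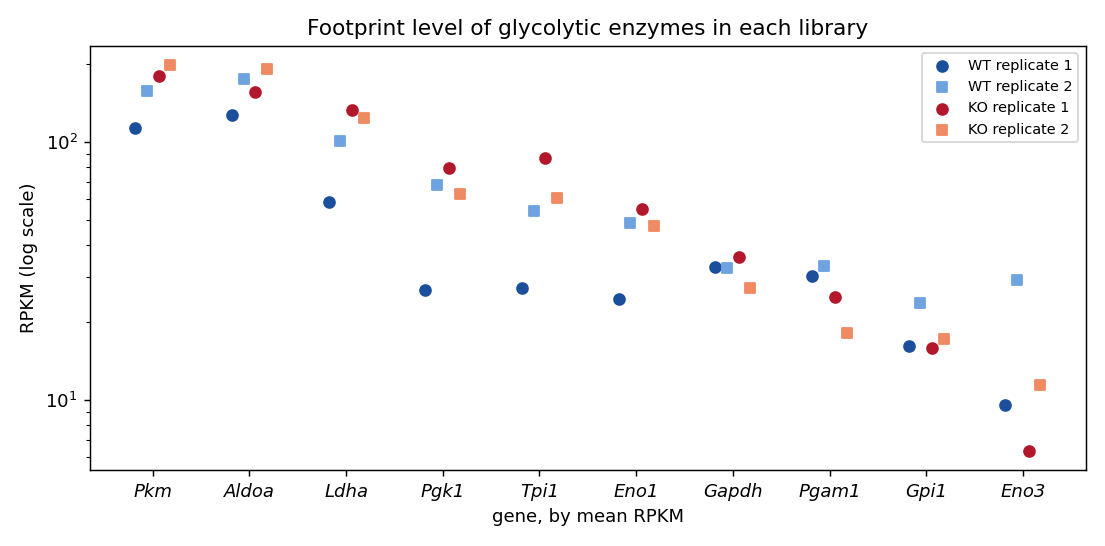
RPKM (log axis) of each enzyme in each of the 4 libraries, ordered by mean level. WT replicate 1 is the lowest library for 6 of the 10 genes, and Eno3 spans 6.34 to 29.3.

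Of the 10 enzymes, 6 had a higher mean log2 level in KO and 4 a lower one, and none passed an adjusted p of 0.05 in limma, against 0.106% of all genes tested (0.0088% higher and 0.0968% lower). All 10 are protein-coding, and of the 9877 protein-coding genes tested 0 were called by limma at the adjusted threshold and 590 had an unadjusted p under 0.05 (voom called 11 of the 10305 that it tested). None of the enzymes had an unadjusted p under 0.05, against 7.32% of all genes and 5.97% of protein-coding genes. None met a 2-fold change with an unadjusted p under 0.05, against 6.96% and 5.57%. The median difference was 0.36 for the 10 enzymes, 0.05 for protein-coding genes and 0.00 for all genes. It was 0.02 without WT replicate 1, 0.59 without WT replicate 2, and 0.97 on scaling to total reads, where the median of all genes was 0.50. The groups did not overlap for 4 of 10 enzymes (background 40.4%): 3 lay higher in KO (background 20.1%) and 1 lower (background 20.3%).

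The first enzymes of the set had overlapping groups. Gpi1 (chr7:34201330-34230336), the isomerase that converts glucose 6-phosphate to fructose 6-phosphate, had an RPKM of 16.2 and 23.7 in WT and 15.9 and 17.3 in KO. Its groups overlapped, with a log2 difference of -0.23 ± 0.41 (SE, limma adjusted p = 0.862). Aldoa (chr7:126795234-126800751), the aldolase that cuts the 6-carbon sugar, had an RPKM of 127 and 175 in WT and 156 and 192 in KO. WT and KO alternated in order, and the difference was 0.21 ± 0.49 (adjusted p = 0.898).

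The second gene named Aldoa (chr7:126800790-126809108) had an RPKM of 2.08, 2.66, 1.38 and 1.55 in the order WT 1, WT 2, KO 1, KO 2. Each of these values is 1 read, below the floor of 3 reads, so they carry no comparison.

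Tpi1 (chr6:124810586-124814296), which interconverts the triose phosphates, had the highest difference of the 10. Its RPKM was 27.1 and 54.0 in WT and 86.9 and 60.7 in KO, and the groups did not overlap. The mean was 40.5 ± 19.0 in WT and 73.8 ± 18.5 in KO (SD, n = 2 each). The log2 difference of 0.91 ± 0.52 had a 95% interval of -0.37 to 2.18 and an adjusted p of 0.697 in limma. Leaving out WT replicate 1 gave 0.42 and leaving out WT replicate 2 gave 1.39.

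The next enzymes, which harvest NADH and ATP, did not move as a block. Gapdh (chr6:125161715-125166467), glyceraldehyde 3-phosphate dehydrogenase, had an RPKM of 32.9 and 32.4 in WT and 35.7 and 27.3 in KO. It was the most even of the enzymes in WT and its KO libraries lay on either side of both, with a difference of -0.06 ± 0.41 (limma adjusted p = 0.970). Pgk1 (chrX:106187100-106203699), the kinase that makes the first ATP, had an RPKM of 26.6 and 68.1 in WT and 79.1 and 62.9 in KO. Here WT replicate 2 lay between the KO libraries, and the difference of 0.71 ± 0.57 (adjusted p = 0.721) was 0.05 without WT replicate 1 and 1.37 without WT replicate 2.

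Pgam1 (chr19:41911923-41918660), the mutase that moves the phosphate within phosphoglycerate, was the single enzyme whose KO libraries both lay below both WT libraries. Its RPKM was 30.1 and 33.2 in WT (31.7 ± 2.17, SD, n = 2) and 25.0 and 18.1 in KO (21.6 ± 4.89). The difference of -0.55 ± 0.41 had a 95% interval of -1.55 to 0.46 and an adjusted p of 0.711 in limma. With a library left out it was -0.62 without WT replicate 1, -0.48 without WT replicate 2, -0.77 without KO replicate 1 and -0.33 without KO replicate 2. Scaling to total reads, which raised the median of all genes to 0.50 and the difference of every enzyme, gave 0.04. These values rest on 36 and 31 reads in WT and 45 and 29 in KO.

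Pkm (chr9:59656368-59679375), the pyruvate kinase of growing cells and muscle, was the most abundant enzyme with Aldoa. Its RPKM was 113 and 158 in WT and 181 and 199 in KO, with no overlap of the groups. The difference was 0.50 ± 0.48 (limma adjusted p = 0.737), with 0.26 when WT replicate 1 was left out and 0.73 when WT replicate 2 was. Its 2 spliced forms, PKM1 and PKM2, cannot be told apart in gene totals.

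Ldha (chr7:46841475-46855627), the lactate dehydrogenase that favours lactate, had an RPKM of 58.6 and 100.7 in WT and 133 and 123 in KO. The groups did not overlap, with means of 79.7 ± 29.7 in WT and 128 ± 6.93 in KO (SD, n = 2 each). The difference was 0.73 ± 0.49 (95% interval -0.48 to 1.94, limma adjusted p = 0.697), with 0.35 when WT replicate 1 was left out and 1.12 when WT replicate 2 was.

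The WT libraries differed from each other in these enzymes. WT replicate 2 exceeded WT replicate 1 for 9 of 10 enzymes, by a median of 0.65 on the log2 scale, against 0.00 over all genes tested, of which 48.9% were higher in WT replicate 2. For 7 of 10 the WT libraries differed by more than the group means did, against 58.8% of all genes tested. The median of KO against WT replicate 2 alone was 0.02, and that between KO replicates (2 minus 1) was -0.16. WT replicate 1 was the lowest library for 6 of 10 enzymes, against 39.6% of the 3357 genes with at least 100 reads. It was also the library with the highest differentiation marker sum, with Myog at 91.0 against 4.26, 0.74 and 1.66 in WT replicate 2 and the KO libraries, and the part of this in the enzyme values was not tested.

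**Figure D2:**
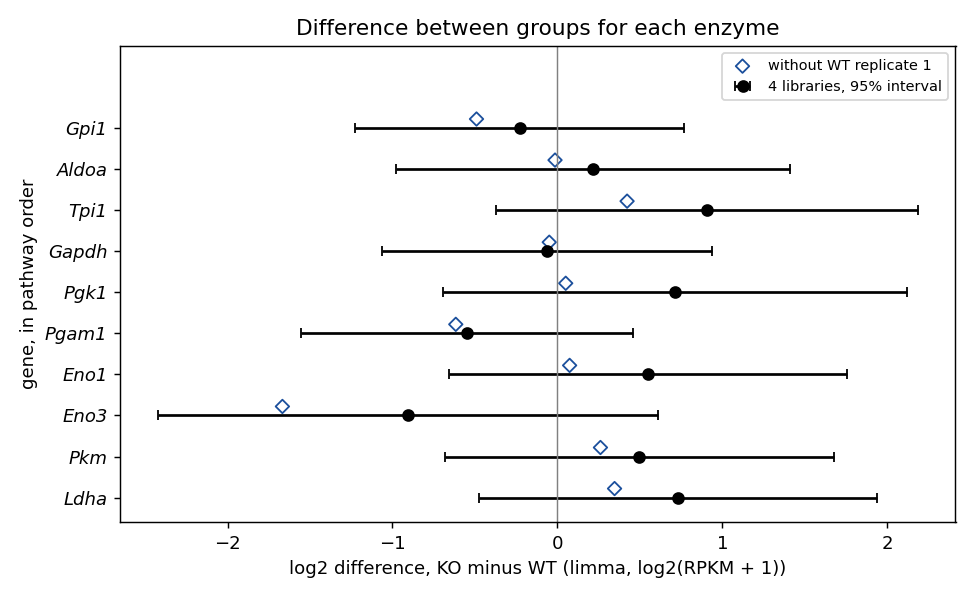
Log2 difference, KO minus WT, for each enzyme in pathway order. Filled points use 4 libraries and carry 95% limma intervals, all of which cross 0. Open diamonds leave out WT replicate 1 and lie nearer to 0 than the filled points for Aldoa, Tpi1, Gapdh, Pgk1, Eno1, Pkm and Ldha.

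The enolases, which turn 2-phosphoglycerate into phosphoenolpyruvate, went in opposite directions by their means. Eno1 (chr4:150236721-150248879), the ubiquitous form, had an RPKM of 24.7 and 48.5 in WT and 55.1 and 47.4 in KO. Only WT replicate 1 was low, and the difference was 0.55 ± 0.49 (limma adjusted p = 0.732), with 0.07 when that library was left out and 1.02 when WT replicate 2 was. Eno3 (chr11:70657202-70662513), the muscle form, had an RPKM of 9.54 and 29.3 in WT and 6.34 and 11.4 in KO. Its groups overlapped, because KO replicate 2 lay above WT replicate 1, and the difference was -0.91 ± 0.62 (95% interval -2.42 to 0.61, adjusted p = 0.697). WT replicate 2 carried most of it: the difference was -0.14 without that library and -1.67 without WT replicate 1.

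Taken as a ratio within each library, which no library scaling can change, the groups were apart. Eno3 made up 27.9% and 37.6% of summed Eno1 and Eno3 RPKM in WT and 10.3% and 19.4% in KO. The means were 32.8% ± 6.90 and 14.8% ± 6.40 (SD, n = 2 each), a difference of -17.9 percentage points. The exact two-sided permutation test gave p = 0.333, the smallest that 2 against 2 allows. On log2(RPKM + 1), which unlike the share depends on the pseudocount and so on library scaling, Eno3 lay below Eno1 in all 4 libraries, with Eno3 minus Eno1 at -1.28 and -0.71 in WT and -2.94 and -1.97 in KO, a difference between groups of -1.45 (exact permutation p = 0.333), or -1.53 with a pseudocount of 0.1.

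The size of the Eno3 share depended on the length it was divided by. A length is the same in every library, so it cannot change the order of the libraries. The deposited gene length was 5379 bases for Eno1 and 1739 for Eno3, although both coding sequences are 1302 bases. In reads, which here equals the share per coding length, Eno3 was 11.1% (95% Wilson interval 6.15% to 19.3%, 10 of its reads against 80 of Eno1) and 16.3% (11.2% to 23.1%, 24 against 123) in WT. In KO it was 3.58% (1.96% to 6.47%, 10 against 269) and 7.21% (4.48% to 11.4%, 16 against 206). Of the 4 pairings of a WT with a KO library, 3 had overlapping intervals, and only WT replicate 2 and KO replicate 1 were apart. Per coding length Eno1 exceeded Eno3 by 8.0-fold and 5.13-fold in WT and by 26.9-fold and 12.9-fold in KO, against 2.59-fold, 1.66-fold, 8.70-fold and 4.16-fold per RPKM.

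**Figure D3:**
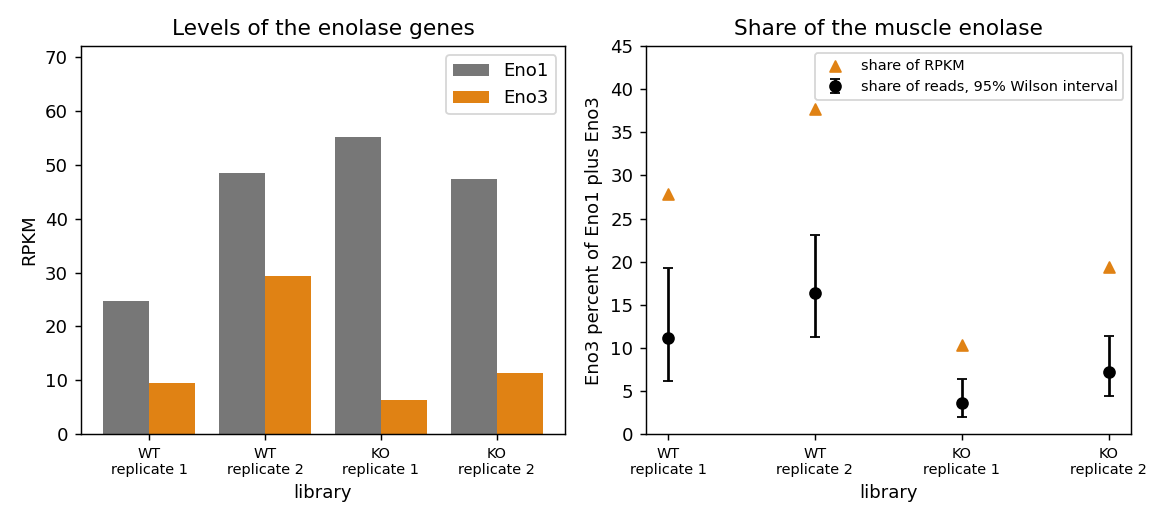
Left, RPKM of Eno1 (grey bars) and Eno3 (orange bars) in each library. Right, Eno3 as a percentage of both, by RPKM (triangles) and by reads (points with 95% Wilson intervals). Both KO libraries sit below both WT libraries, and the scales share the same reads.

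The share of sequence that a footprint could place uniquely differed widely among the enzymes. Of 30-base coding windows, 100% of those of Eno3 were found in no other gene's transcripts, against 66.9% for Tpi1, 57.0% for Aldoa, 41.9% for Gpi1, 41.2% for Ldha and 21.7% for Pkm. The value fell to 10.1% for Eno1, 5.73% for Gapdh and 0 for Pgk1 and Pgam1. Gapdh shared windows with 344 other genes, of which 331 were pseudogenes. Eno1 shared 1144 of its windows with its closest copy, Gm4735, Pgk1 shared 1222 with Gm5537, and Pgam1 shared 733 with Pgam1-ps2.

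The closest copies of Eno1, Pgk1 and Pgam1 held no read in any library, whereas Pgk1 and Pgam1 held 383 and 141 reads over the 4 libraries in spite of having no unique coding window. Windows outside the coding sequence were unique more often, so that 31.7% of all Pgk1 windows and 57.8% of all Pgam1 windows were unique. Among 22 retrocopies named after a member, 6 held reads, 12 reads in all and at most 4 in one gene: Aldoa-ps4, Ldha-ps, Ldha-ps2, Tpi-rs2, Tpi-rs8 and Aldoart1. All pseudogenes that shared a window, whatever their name, held more: 42 reads over the 4 libraries for Gapdh, 19 for Pkm, of which 8 were in its closest copy Gm6560, 12 for Eno1, 11 for Aldoa, 9 for Ldha and 1 to 4 each for Gpi1, Tpi1, Pgam1 and Pgk1. Counts of Eno1, Gapdh, Pgk1 and Pgam1 in particular are thus uncertain in level. All reads of each enolase were also divided by its number of unique coding windows, a measure chosen after the data were seen. The Eno3 share of Eno3 plus Eno1 became 1.25% and 1.94% in WT and 0.375% and 0.781% in KO. Reads were not placed in windows, so these shares hold only if every read came from a unique coding window, which cannot be checked here. Dividing by a number of windows, fixed for each gene, rescales the same reads and cannot change the order of the libraries.

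**Figure D4:**
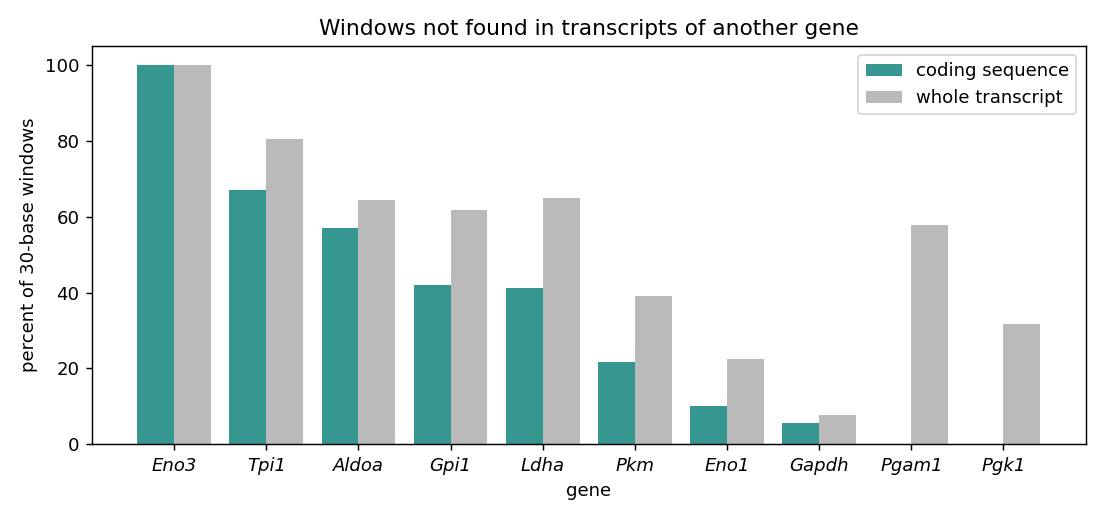
Percentage of 30-base windows of each enzyme found in no transcript of another gene, for the coding sequence (green) and for the whole transcript (grey). Eno3 is at 100% in both, while Pgk1 and Pgam1 have no unique coding window.

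The order of the levels also changed with the length used. By mean RPKM it ran Pkm, Aldoa, Ldha, Pgk1, Tpi1, Eno1, Gapdh, Pgam1, Gpi1 and Eno3, and every pair of neighbours overlapped in range. Per kilobase of coding sequence, scaled as RPKM, the means were 510 for Pkm, 377 for Aldoa, 318 for Ldha, 182 for Eno1, 175 for Tpi1, 123 for Gapdh, 106 for Pgk1, 70.4 for Gpi1, 69.2 for Pgam1 and 18.9 for Eno3. Only the last neighbours, Pgam1 and Eno3, had ranges that did not overlap. Some gene spans overlap another gene, on the opposite strand for Aldoa, Tpi1, Gapdh and Gpi1 and on the same strand for Pkm, and whether counting used strand is not stated.

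Tissue-restricted relatives of the enzymes were rarely read. Bpgm, the bisphosphoglycerate mutase, had 0, 7, 10 and 6 reads in the order WT 1, WT 2, KO 1, KO 2. Eno2, the neuronal enolase, had 12, 1, 7 and 7 reads in that order, and Pgam2, the muscle mutase, had 1, 0, 0 and 1. Ldhb, the heart-type lactate dehydrogenase, had 5, 10, 16 and 13 reads and made up 8.27%, 11.8%, 7.78% and 7.67% of summed Ldha and Ldhb RPKM. Its share was therefore low in every library. Gapdhs, Pgk2 and Pklr had no reads, and a count of 0 allows up to 3 reads in each library.

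In the rest of the pathway no gene passed the test either. Of 41 genes for glucose uptake, hexokinases, phosphofructokinases, paralogs and the fate of pyruvate and lactate, 26 were tested. None had an adjusted p under 0.05 in limma (0.106% of all genes, and 0 of 9877 protein-coding genes). None had an unadjusted p under 0.05 either (7.32% of all genes and 5.97% of protein-coding genes). Differences were above 0 for 19 and below 0 for 7, with a median of 0.14, while 53.1% of protein-coding genes and 50.0% of all genes lay above 0. Slc2a1, the glucose transporter GLUT1, was the most abundant uptake gene with an RPKM of 51.1, 75.7, 93.4 and 69.6 in the order WT 1, WT 2, KO 1, KO 2 (difference 0.37). Hk1 and Hk2, which phosphorylate glucose, differed by 0.09 and 0.61. Pfkl and Pfkm, the liver and muscle phosphofructokinases, differed by 0.43 and 0.22, and Pfkfb3, which makes the activator fructose 2,6-bisphosphate, by 0.13. Slc16a1 and Slc16a3, the lactate transporters, differed by 0.42 and 0.46, and Pdha1, a subunit of pyruvate dehydrogenase, by 0.66. Slc16a3 was 11.5 and 10.8 in WT and 26.7 and 9.08 in KO, so KO replicate 2 lay below both WT libraries. Leaving out a library moved these differences. Slc16a3 then ranged from -0.27 to 1.19, Slc2a1 from 0.09 to 0.65 and Hk1 from -0.24 to 0.42. Pfkm ranged from -0.016 to 0.46 and Pfkfb3 from -0.40 to 0.66, while Hk2, Pfkl, Slc16a1 and Pdha1 stayed above 0.

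**Figure D5:**
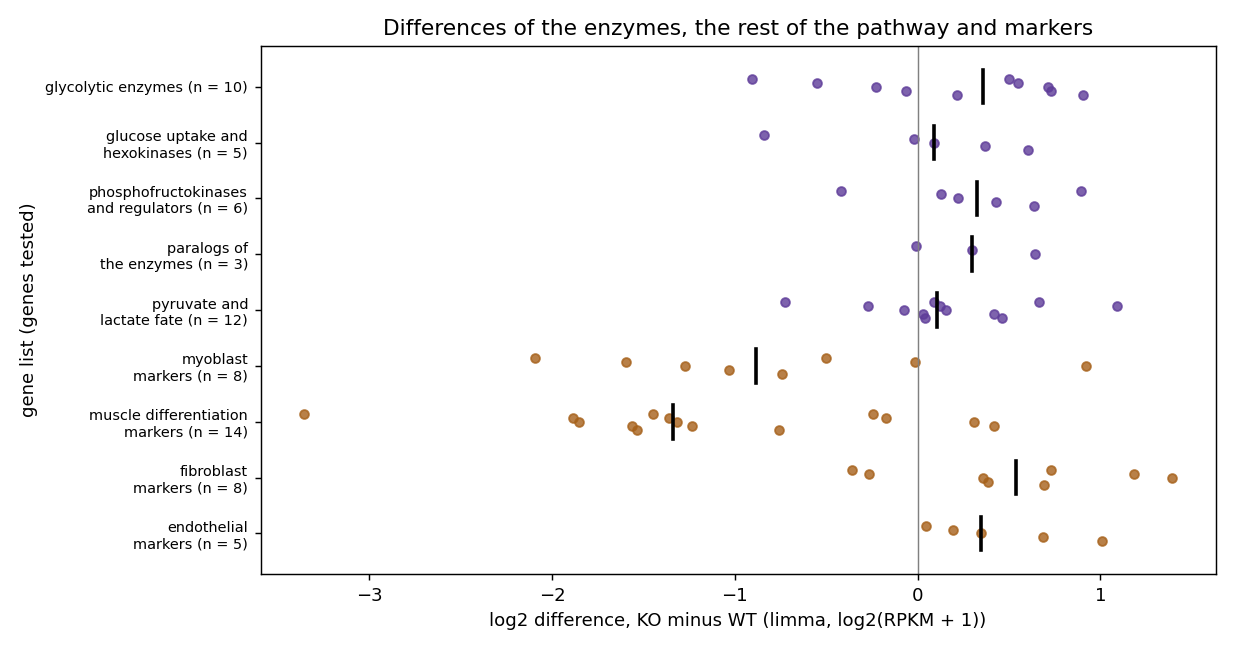
Log2 difference, KO minus WT, of each tested gene in the enzymes, the other pathway lists (purple) and marker lists (brown), with the median of each list as a black bar. The enzymes have a median of 0.36. Myoblast markers lie below 0 for 7 of 8 genes, Itga7 among them at -0.017, against 5680 of all 11363 genes tested. Immune and mural markers are not drawn.

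None of the genes named here as nearest to Eno1 or to Eno3 by profile over the 4 libraries was another of the enzymes. By Euclidean distance of centred log2(RPKM + 1) profiles among protein-coding genes with at least 100 reads, the 5 nearest to Eno1 were Mthfd1 (0.043), Btf3, Rpa1, Dhx29 and Usp5, of 3356 genes ranked. Ldha was rank 62, Pgk1 172, Tpi1 322 and Pkm 336. The 4 nearest to Eno3 were Yipf1 (0.131), Ppl, Ankrd1 and Cavin3, of 3357, and Eno1 was rank 1382. With 4 libraries many genes share such a profile, so these distances are a description.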

How the data were processed

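Ribo-seq of mouse primary myoblasts was analysed in 4 libraries, 2 WT and 2 labelled KO, grouped and numbered by their labels. Per the labels and methods, the authors removed low-quality, rRNA and tRNA reads, aligned with TopHat2 to mm10 (GRCm38) and counted with HTSeq. The treatment of multi-mapped reads and of strand was not given in the sources used here. The authors deposited RPKM for 55573 genes. RPKM multiplied by gene length and divided by the smallest step gave whole reads for 100.0% of values (tolerance 0.001), with denominators of 602863, 471136, 906990 and 807705 reads, proportional to median-of-ratios size factors.

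limma 3.58.1 (R 4.3.3, lmFit and eBayes with trend, two-sided) was run on log2(RPKM + 1) for the 11363 genes whose RPKM averaged 1 or more, which understates changes of low genes. Benjamini-Hochberg adjustment covered all of them. Scripts were tested on simulated data with changes larger than any of the enzyme differences. That test does not show whether differences of their size can be found. A floor of 3 reads equals an RPKM of 4.98, 6.37, 3.31 and 3.71 for a 1 kb gene, in the order WT 1, WT 2, KO 1, KO 2. Sequences, coding lengths and 30-base windows came from GENCODE vM21 (GRCm38). All 10 enzymes were named, with up to 3 genes of each other pathway list (those past a test first, then the most abundant), the paralogs Pgam2, Gapdhs, Pgk2 and Pklr beyond that rule, picked with their values known, and the 5 nearest profiles of Eno1 and Eno3, of which 1 is not reported here. Members and lists were chosen with earlier results of these data known. Alternatives varied the pseudocount, filter, scaling, GC and length trend, replicate block, libraries and test.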

Additional observations from a re-analysis of the deposited data

How the results depend on the processing

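Of 13 alternatives, 4 return by construction the estimate of another fit (filters and the replicate block). Under the other 9, 84 of 90 differences of single enzymes kept their sign, and under all 13 none had an adjusted p under 0.05 (0.290 to 0.994). The sign turned on scaling to total reads, where the median of all genes was 0.50, for Gpi1 (0.35), Gapdh (0.53) and Pgam1 (0.044). That scaling changes only the factor by which each library is divided, and it raised the difference of all 10 enzymes. The others became 0.83 (Aldoa), 1.51 (Tpi1), 1.32 (Pgk1), 1.15 (Eno1), -0.34 (Eno3), 1.11 (Pkm) and 1.34 (Ldha). With a library left out, Gpi1 ranged from -0.49 to 0.031 (the latter without WT replicate 2), Aldoa from -0.015 (without WT replicate 1) to 0.44 and Gapdh from -0.25 to 0.13 (without KO replicate 2). Unadjusted p fell under 0.05 for Pkm, Ldha, Pgk1, Tpi1 and Eno1 on total reads (16.2% of all genes there), for Ldha and Pgk1 without WT replicate 2 (14.6%), and for Tpi1 under the replicate block once the trend on GC and length was taken out (8.20%). Enzymes with groups apart numbered 4 (40.4% of all genes), but 8 on total reads (49.4%) and 6 to 9 when a library was left out (6 without WT replicate 1 and without KO replicate 1, 7 without WT replicate 2, 9 without KO replicate 2, against 71.8%, 62.4%, 76.5% and 65.4% of all genes), since fewer libraries have to be apart. The Eno3 share difference of -17.9 points was -8.32 by coding length or reads, through the length divided by. It was -1.02 with all reads divided by the number of unique coding windows, and -22.8 to -13.0 with a library left out. Over all genes, 12 adjusted calls were counted, against 0 with a pseudocount of 0.1, no filter, a mean of at least 5, total reads, the replicate block, a correction for GC and length (alone or with that block), or any library left out (0 to 0), 13 on protein-coding reads, which shared all 12, and 76 by voom, which was added after seeing the data and shared 0 of the 12. Unadjusted calls numbered 832, and from 382 without KO replicate 1 to 1863 on total reads. Genes meeting the fold criterion numbered 791, 469 at a mean of at least 5, 1758 on total reads and 382 to 1631 with a library left out (1631 without WT replicate 2, 382 without KO replicate 1). The share of these that were lower in KO was 61.7%, 9.61% on total reads, 49.3% without the GC and length trend and 71.2% on protein-coding reads. Replicate numbers did not pair the libraries (r = 0.057 over 11363 genes, 2 pairs), and with equal groups the block cannot change a mean difference, so the enolase value stayed at -1.45 by construction. The planned edgeR test was not run, and voom on the recovered reads was run in its place. Depth limits Eno3, with 60 reads in all, most.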
